A study of Homo sapiens with 11 samples.

Results

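Macroautophagy encloses cytoplasm in a double membrane and delivers it to the lysosome. Described here are 10 human genes of this pathway, taken by symbol from a count table of 27671 genes in HEK293T, an established line of human embryonic kidney origin that expresses SV40 large T antigen. They are the cargo receptors SQSTM1 and NBR1, the ATG8-family genes MAP1LC3B and GABARAPL1, the conjugation genes ATG3, ATG5, ATG12 and ATG16L1, the initiating kinase ULK1 and the phosphoinositide-binding protein WIPI1. All 10 were found and all 10 passed the filter on low counts, which kept 15591 genes. They were listed by symbol as pathway members, several of which are described as targets of the stress factors ATF4 and CHOP.

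Cells were treated with A8, a compound named in the series title beside the RNA sensor RIG-I and the integrated stress response. Polyadenylated RNA was sequenced from 3 libraries with the vehicle DMSO, 2 with DMSO and ISRIB, 3 with A8 at 10 µM, and 3 with A8 at 10 µM and ISRIB. A further library of DMSO with ISRIB was left out by the submitters for its quality. The ISRIB dose is not given in the sources used here, and the treatment time is 8 h in the sample titles and 4 h in the treatment protocol. HEK293T is 1 established line, and the titles call its replicates biological without saying how the cultures were separated. P-values therefore measure the spread between these libraries.

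In autophagy, the ULK1 kinase complex and a class III phosphoinositide 3-kinase start the membrane, and WIPI proteins bind the lipid that the latter makes. A ubiquitin-like system, in which ATG12 is joined to ATG5 and held by ATG16L1 while ATG3 acts as the lipid-transferring enzyme, then couples LC3 and GABARAP proteins to that membrane. SQSTM1 (p62) and NBR1 bind both ubiquitinated cargo and these ATG8 proteins, and are degraded with the cargo. In the integrated stress response, phosphorylated eIF2 lowers general translation while ATF4 is made, and ISRIB acts on eIF2B to blunt it. In amino acid starvation and endoplasmic reticulum stress, ATF4 and CHOP are known to raise transcripts of SQSTM1, NBR1, MAP1LC3B and several ATG genes. Transcript counts do not measure autophagic flux.

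ATF4 and CHOP bind a composite element whose core was searched here as TGATGNAA, on both strands, in the promoter windows that RefSeq gives for build GRCh38.p14 (250 bases before to 50 after each gene's start). It was present in 3.67% of 27305 promoters and in 0 of the 10 autophagy genes. The window of ATG5 differs from the other 9 in composition, with 26.4% GC and 2 CpG sites in the 250 bases before the listed start, and whether that start is the one used in these cells was not tested. Of the stress response genes used below for reference, CHAC1 and ASNS carry the composite element and ATF4 does not. The DDIT3 window was not examined by itself. The CHAC1 and ASNS windows are shown so that the element can be seen beside the autophagy promoters. The CHAC1 window is chr15:40953221-40953470 on the plus strand, with the match 209 bases before the start and in reverse orientation. The ASNS window is chr7:97872409-97872658 on the minus strand, with the match 68 bases before the start. Each sequence below runs 5′ to 3′ over the 250 bases before the start, with matches to a searched motif in capitals.
CHAC1: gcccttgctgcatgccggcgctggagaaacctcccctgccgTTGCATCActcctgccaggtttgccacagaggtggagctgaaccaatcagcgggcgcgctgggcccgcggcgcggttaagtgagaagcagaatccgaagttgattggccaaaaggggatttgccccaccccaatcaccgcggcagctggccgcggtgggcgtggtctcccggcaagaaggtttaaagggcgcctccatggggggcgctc
ASNS: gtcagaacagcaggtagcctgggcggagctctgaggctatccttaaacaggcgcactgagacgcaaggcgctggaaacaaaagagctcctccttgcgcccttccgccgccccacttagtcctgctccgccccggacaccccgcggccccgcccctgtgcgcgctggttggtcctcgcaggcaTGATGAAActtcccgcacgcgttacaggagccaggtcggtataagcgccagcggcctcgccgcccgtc

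A second form of ATF4 element, TGACGNAA, was in 1.79% of promoters and in 0 of the 10. The other motifs searched belong to factors that are known to act on autophagy genes. These were the antioxidant response element of NRF2 (TGACNNNGC, in 13.6% of promoters), the CLEAR element of TFEB (TCACGTGA, in 1.04%) and the E-box it contains (CACGTG, in 7.43%). MAP1LC3B held 1 antioxidant response element match, 46 bases before its start, in the window chr16:87392086-87392335 on the plus strand. ATG3 held an E-box 18 bases before its start, in the window chr3:112561963-112562212 on the minus strand, and, just after the start and not printed, a CLEAR match with another E-box inside it. SQSTM1, in the window chr5:179806143-179806392 on the plus strand, held no match to any of these motifs. A missing match says only that these letters are not in this window.
MAP1LC3B: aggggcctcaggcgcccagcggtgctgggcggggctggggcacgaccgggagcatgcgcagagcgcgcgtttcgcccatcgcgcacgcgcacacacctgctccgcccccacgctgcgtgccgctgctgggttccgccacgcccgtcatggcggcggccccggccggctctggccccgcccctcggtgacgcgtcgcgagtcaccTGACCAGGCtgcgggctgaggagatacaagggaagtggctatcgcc
ATG3: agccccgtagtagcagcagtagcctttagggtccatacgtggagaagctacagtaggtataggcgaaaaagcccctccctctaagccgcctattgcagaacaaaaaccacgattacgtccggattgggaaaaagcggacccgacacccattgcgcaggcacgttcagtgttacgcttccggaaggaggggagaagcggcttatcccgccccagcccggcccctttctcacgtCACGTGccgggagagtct
SQSTM1: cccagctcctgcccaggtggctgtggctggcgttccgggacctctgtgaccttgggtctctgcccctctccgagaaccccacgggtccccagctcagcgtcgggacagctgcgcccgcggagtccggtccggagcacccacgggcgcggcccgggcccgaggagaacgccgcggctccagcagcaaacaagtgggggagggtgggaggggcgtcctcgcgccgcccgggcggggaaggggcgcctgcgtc

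Each library held 34072107 to 35318111 counts and 17892 to 18017 detected genes, and libraries of the same group differed by more than sampling noise (chi-square per degree of freedom 7.21 to 36.1). The highest value came from A8 with ISRIB 3 against library 1 of its group (36.1), followed by DMSO 3 against DMSO 1 (24.7). Next were A8 with ISRIB 3 against library 2 of its group (22.6) and DMSO 3 against DMSO 2 (19.6). All 7 markers set for the HEK293 line were counted in every library, with VIM at 21831 or more counts. Of the leukocyte markers, PTPRC had 0 counts in all libraries, LYZ at most 1 and CD68 152 to 209. Of the endothelial markers, PECAM1 had 0 counts, CDH5 at most 2 and VWF at most 8. Of the fibroblast markers, COL1A1 had 540 to 753 counts, COL3A1 14 to 40, DCN at most 5 and LUM at most 10. Levels below are CPM, counts scaled to library size with TMM factors. In a bulk library, less RNA per cell and fewer cells with that RNA cannot be told apart.

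In vehicle the 10 transcripts differed widely in level. Per kilobase of the longest coding transcript, SQSTM1 had 67.0 ± 1.9 CPM (SD, n = 3) and was the most abundant of the 10. It was followed by ULK1 with 17.8 ± 0.21 CPM per kilobase, ATG3 with 16.7 ± 0.26, NBR1 with 14.3 ± 0.40 and ATG16L1 with 12.1 ± 0.67. ATG12 had 7.10 ± 0.24 CPM per kilobase, ATG5 had 6.19 ± 0.096, GABARAPL1 had 4.50 ± 0.30, WIPI1 had 2.92 ± 0.36 and MAP1LC3B had 2.03 ± 0.30. No 2 neighbours in this order had overlapping vehicle libraries. Transcript lengths came from GENCODE 29 on GRCh38, not from the annotation behind the counts, so the order is approximate. The place of MAP1LC3B is uncertain, because its near-identical copy MAP1LC3B2 held 363 to 495 counts per library against 166 to 222 for MAP1LC3B itself.

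The first question was whether A8 changed these transcripts while it raised stress response genes. No autophagy gene was called higher or lower with A8 by edgeR's quasi-likelihood test at an adjusted p under 0.05, and 0 of 10 were called by DESeq2. CHAC1, which degrades glutathione, and ASNS, the asparagine synthetase, rose by log2 fold changes of 1.70 (95% interval 1.39 to 2.01) and 0.70 (0.57 to 0.84), with adjusted p of 3.67e-05 and 4.46e-05 in edgeR. The transcripts of ATF4 and of DDIT3, which encodes CHOP, were not called. Their log2 fold changes were 0.24 (95% interval 0.07 to 0.42, edgeR adjusted p = 0.328) and 0.36 (0.09 to 0.62, edgeR adjusted p = 0.343). The 10 autophagy genes had log2 fold changes between -0.13 and 0.19, and their 95% intervals all lay between -0.28 and 0.38. None of these intervals reached that of ASNS, while all but those of SQSTM1 and ATG16L1 overlapped with those of ATF4 and DDIT3. Calls were made for 0.141% of all genes tested with edgeR and for 1.25% of those with an adjusted p in DESeq2. An unadjusted p under 0.05 was reached by 1 of the 10 in either tool, against 10.2% of all genes in edgeR. The median log2 fold change of the 10 was 0.03, beside 0.01 over all genes tested.

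**Figure D1:**
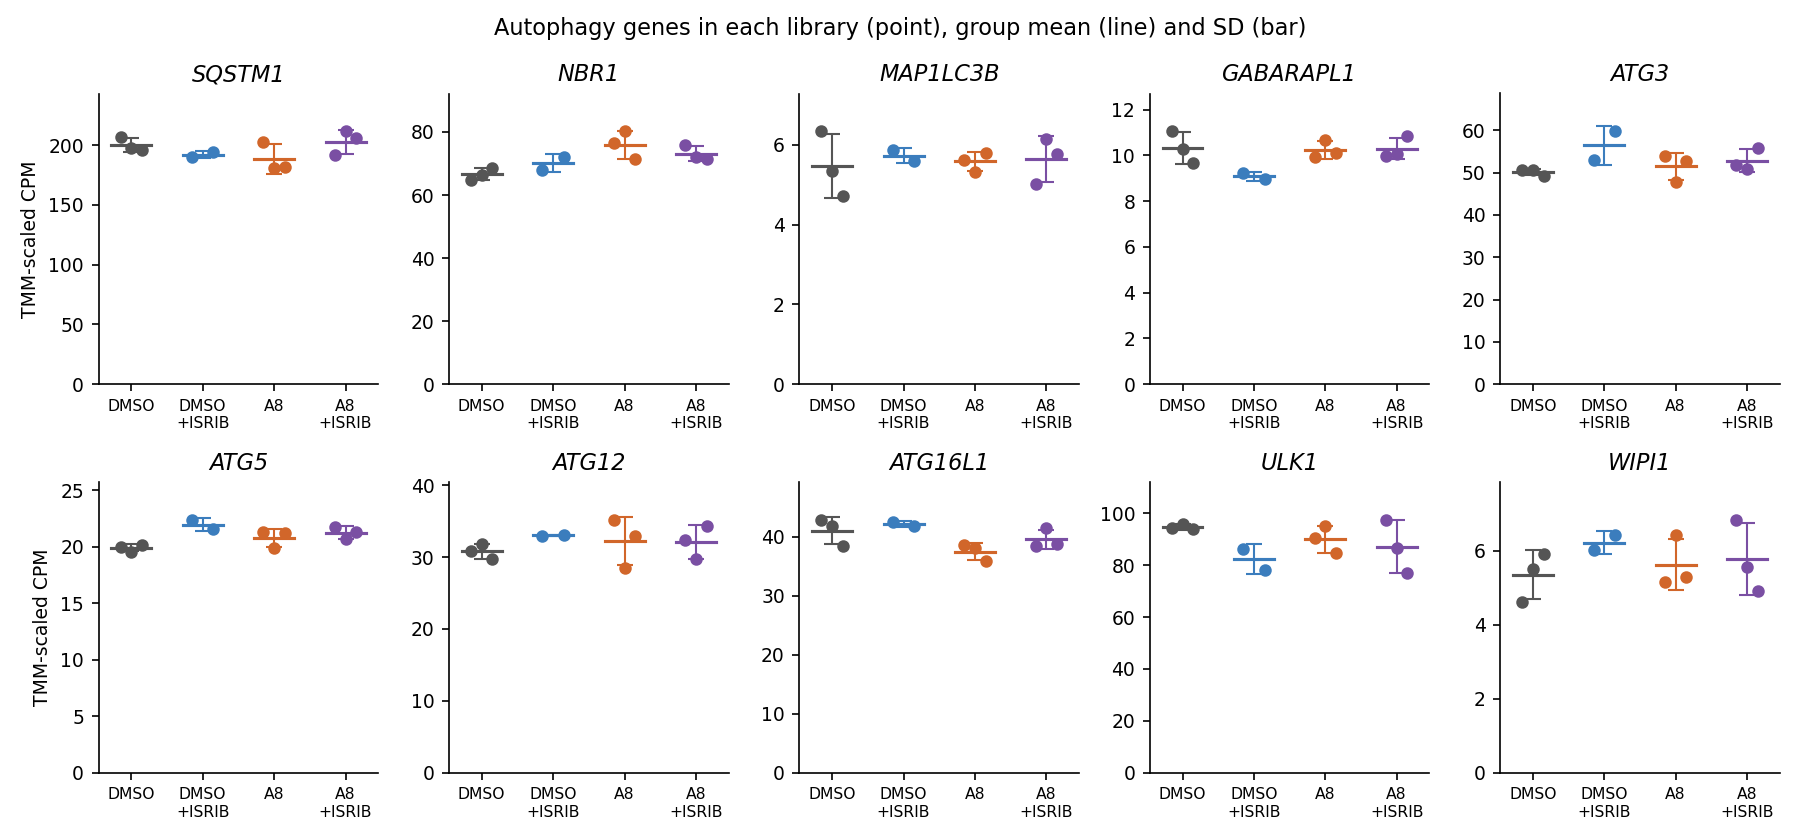
TMM-scaled CPM (y axis, from 0) of the 10 autophagy genes in the 4 treatment groups (x axis); points are libraries (3, 2, 3 and 3 per group), horizontal lines are means and bars are SD. NBR1 has all 3 A8 libraries above all 3 vehicle libraries, while every other gene shown overlaps between A8 and vehicle.

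Of the 10 genes, NBR1 had the highest log2 fold change with A8. Its vehicle libraries had 64.8, 66.4 and 68.6 CPM, and its A8 libraries had 76.4, 80.2 and 71.4 CPM. The groups did not overlap, and NBR1 was the 1 gene of the 10 for which that held, while 16.6% of all genes tested showed no overlap and 8.47% were higher with A8 without overlap. Its log2 fold change was 0.19 (SE 0.06, 95% interval 0.06 to 0.32), with an unadjusted p of 0.00831 and an adjusted p of 0.308 in edgeR. Over the alternatives tried the adjusted p ran from 0.150 in DESeq2 to 0.618 in edgeR without DMSO 1. Leaving out a library gave log2 fold changes from 0.15 to 0.24. NBR1 measured 68.0 and 72.1 CPM with ISRIB alone and 75.8, 72.1 and 71.4 CPM with A8 and ISRIB. The A8 with ISRIB libraries also lay above all vehicle libraries, with a log2 fold change of 0.13 (edgeR adjusted p = 0.648), and they overlapped with those of A8 alone. The order of group means was A8, A8 with ISRIB, ISRIB alone and vehicle, and every pair of neighbours in it overlapped.

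SQSTM1, the other receptor, did not follow NBR1. Its vehicle libraries had 207, 197 and 196 CPM and its A8 libraries 203, 181 and 181 CPM. A8 libraries 2 and 3 lay below vehicle and A8 library 1 lay within it. The log2 fold change was -0.09 (SE 0.06, 95% interval -0.22 to 0.04, edgeR adjusted p = 0.669). With ISRIB alone SQSTM1 measured 190.1 and 193.9 CPM, and with A8 and ISRIB 192, 211 and 206 CPM. The 2 ISRIB libraries were below every vehicle library, with a difference of -0.06 on the log2 scale (95% interval -0.20 to 0.09). Adding ISRIB to A8 gave a log2 fold change of 0.11 (SE 0.06, edgeR adjusted p = 0.885), again with overlapping libraries.

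**Figure D2:**
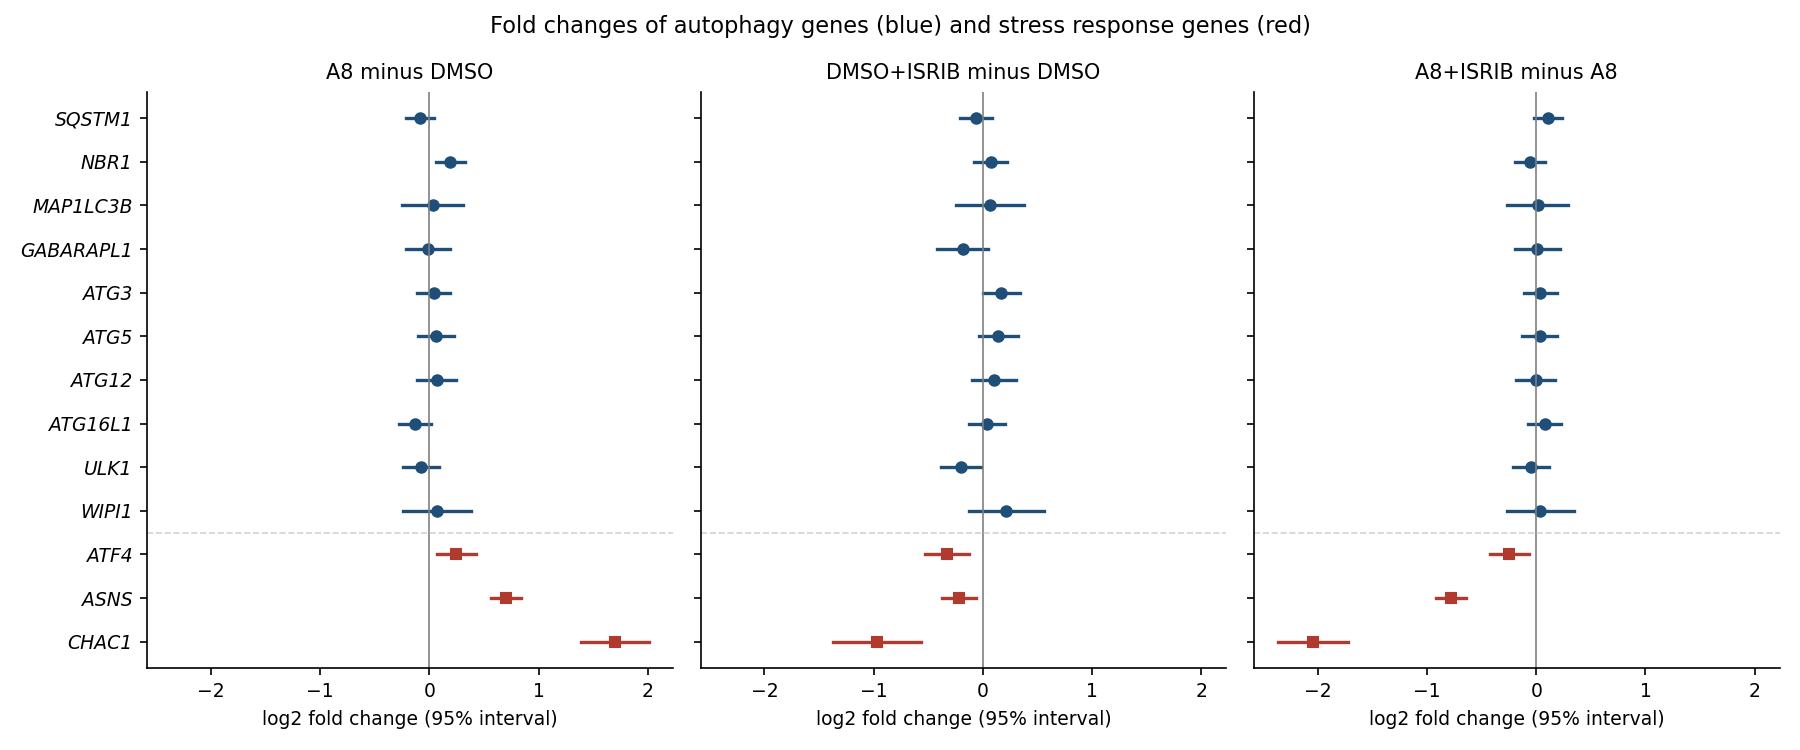
Log2 fold changes (x axis) with 95% intervals from edgeR for the 10 autophagy genes (blue circles) and ATF4, ASNS and CHAC1 (red squares), in A8 against vehicle, ISRIB alone against vehicle, and A8 with ISRIB against A8. The autophagy genes lie within 0.22 of 0 in all 3 panels. ASNS is at 0.70, -0.22 and -0.78, and ATF4 at 0.24, -0.33 and -0.25. With ISRIB alone, ASNS lies about as far from 0 as WIPI1 (0.22).

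MAP1LC3B and GABARAPL1, the ATG8-family genes among the 10, had, with WIPI1, the lowest CPM of the 10. MAP1LC3B encodes LC3B, the protein whose lipid-bound form is the usual marker of autophagosomes. It had 6.33, 5.35 and 4.73 CPM in vehicle and 5.63, 5.33 and 5.80 CPM with A8. The difference on the log2 scale was 0.03 (SE 0.13, edgeR adjusted p = 0.963). The vehicle libraries spanned the whole range of the A8 libraries. With ISRIB alone it had 5.86 and 5.59 CPM, and with A8 and ISRIB 5.02, 6.16 and 5.76 CPM. Counts of MAP1LC3B and MAP1LC3B2 were also summed, a choice made after seeing the data. The sum averaged 17.6 ± 1.8 CPM (SD, n = 3) for vehicle and 17.3 ± 0.87 CPM (SD, n = 3) for A8. Its log2 fold change was -0.02, and the sign for MAP1LC3B thus turned with this choice.

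GABARAPL1, of the GABARAP branch that acts late in autophagosome closure, had 11.04, 10.3 and 9.65 CPM in vehicle and 9.91, 10.7 and 10.1 CPM with A8. Its log2 fold change with A8 was -0.01 (SE 0.10, edgeR adjusted p = 0.978), and it turned positive when DMSO 1 or A8 1 was left out (0.04 and 0.01). With ISRIB alone it measured 9.21 and 8.95 CPM, below every library of the other 3 groups. That difference from vehicle was -0.18 on the log2 scale (SE 0.11, edgeR adjusted p = 0.600). With A8 and ISRIB it had 9.98, 10.1 and 10.8 CPM, above both ISRIB libraries by a log2 fold change of 0.18 (SE 0.11, edgeR adjusted p = 0.691).

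Libraries of the conjugation genes overlapped between A8 and vehicle. ATG3 had 50.6, 50.6 and 49.3 CPM in vehicle and 53.9, 47.8 and 52.7 CPM with A8. ATG5 had 20.0, 19.6 and 20.2 CPM in vehicle and 21.3, 19.9 and 21.2 CPM with A8. ATG12 had 30.8, 31.8 and 29.7 CPM in vehicle and 35.2, 28.5 and 32.9 CPM with A8. In all 3 genes A8 library 2 was the lowest of its group and lay within or below the vehicle range. Log2 fold changes were 0.04 for ATG3, 0.06 for ATG5 and 0.07 for ATG12, with adjusted p from 0.844 to 0.899 in edgeR. That of ATG12 rested on A8 1, without which it was near 0 (-0.0017).

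ATG16L1, the scaffold that places the conjugation machinery on the membrane, had the lowest log2 fold change of the 10 with A8. It had 42.9, 41.8 and 38.5 CPM in vehicle and 38.6, 38.02 and 35.9 CPM with A8. A8 library 1 lay just above DMSO 3, so the groups overlapped. The log2 fold change was -0.13 (SE 0.07, 95% interval -0.28 to 0.02, edgeR adjusted p = 0.548). ISRIB libraries had 42.5 and 41.8 CPM, and those with A8 and ISRIB 38.4, 41.5 and 38.8 CPM. The latter were all below both ISRIB libraries, with a difference of -0.09 on the log2 scale (95% interval -0.26 to 0.07).

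Of the genes that act at the start, ULK1 had 94.3, 95.9 and 93.8 CPM in vehicle and 90.3, 95.02 and 84.6 CPM with A8. Its log2 fold change with A8 was -0.07 (SE 0.08, edgeR adjusted p = 0.803). With A8 and ISRIB the 3 libraries spread from 77.1 to 97.4 CPM, a range that covered every other library. WIPI1 had 4.62, 5.51 and 5.92 CPM in vehicle and 5.16, 6.42 and 5.30 CPM with A8, from 162 to 230 counts per library. Its log2 fold change with A8 was 0.07 with the widest 95% interval of the 10, -0.24 to 0.38. That value turned negative without DMSO 1 (-0.02) or without A8 2 (-0.03).

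Whether ISRIB moved these transcripts in the absence of A8 was asked by setting it against vehicle. No autophagy gene passed the test, yet 7 of the 10 had no overlap between the 2 ISRIB and the 3 vehicle libraries, against 29% of all genes tested. ATG3, ATG5, ATG12 and WIPI1 were higher in both ISRIB libraries, beside 13.9% of all genes, and SQSTM1, GABARAPL1 and ULK1 were lower, beside 15.1%. edgeR called 0% of all genes in this comparison and DESeq2 0.45%, and none of the 10 was called by either. An unadjusted p under 0.05 was reached by 2 of the 10 in edgeR, beside 9.58% of all genes, and by 2 in DESeq2.

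ATG3 measured 53.1 and 59.7 CPM with ISRIB alone, a log2 fold change of 0.17 (SE 0.08, unadjusted p = 0.0474, edgeR adjusted p = 0.516). It was 0.08 without ISRIB library b and 0.25 without library a, so the higher library sets much of its size. ULK1 measured 86.4 and 78.2 CPM, a log2 fold change of -0.20 (SE 0.09, unadjusted p = 0.0344, edgeR adjusted p = 0.493). It was -0.13 without library b and -0.27 without library a. In both genes library b lay farther from vehicle than library a. The partners ATG5 and ATG12 had smaller differences. ATG5 measured 22.4 and 21.6 CPM, 0.14 above vehicle on the log2 scale (SE 0.09). ATG12 measured 32.98 and 33.02 CPM, 0.10 above vehicle (SE 0.09). WIPI1 measured 6.01 and 6.43 CPM, 0.22 above vehicle (SE 0.16). Of the genes whose libraries overlapped, NBR1, MAP1LC3B and ATG16L1 had log2 fold changes of 0.07, 0.07 and 0.04, so receptor and ATG8-family genes lay on both sides of vehicle.

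Transcript base composition moved with these differences. Over the 13688 tested genes with a GC value (87.8%), log2 fold changes of ISRIB alone had a Spearman correlation of -0.47 with GC content, and those of A8 one of -0.29. Across the 10 autophagy genes the correlation was -0.76 in each comparison, a description over 10 genes measured in the same libraries, and both comparisons share the vehicle libraries. ATG12, ATG5 and ATG3 have 37.5%, 38.8% and 39.9% GC, and SQSTM1 and ULK1 have 58.0% and 64.2%. With the trend over all genes subtracted, an analysis chosen after seeing the data, the ISRIB values of ATG3, ATG5 and ATG12 went from 0.17, 0.14 and 0.10 to 0.07, 0.04 and -0.003. Those of ULK1 and SQSTM1 went from -0.20 and -0.06 to -0.06 and 0.02. GABARAPL1 was at -0.21 and WIPI1 at 0.18 with the trend subtracted, and NBR1 with A8 was at 0.16. The part of GC content in these results was not tested.

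**Figure D3:**
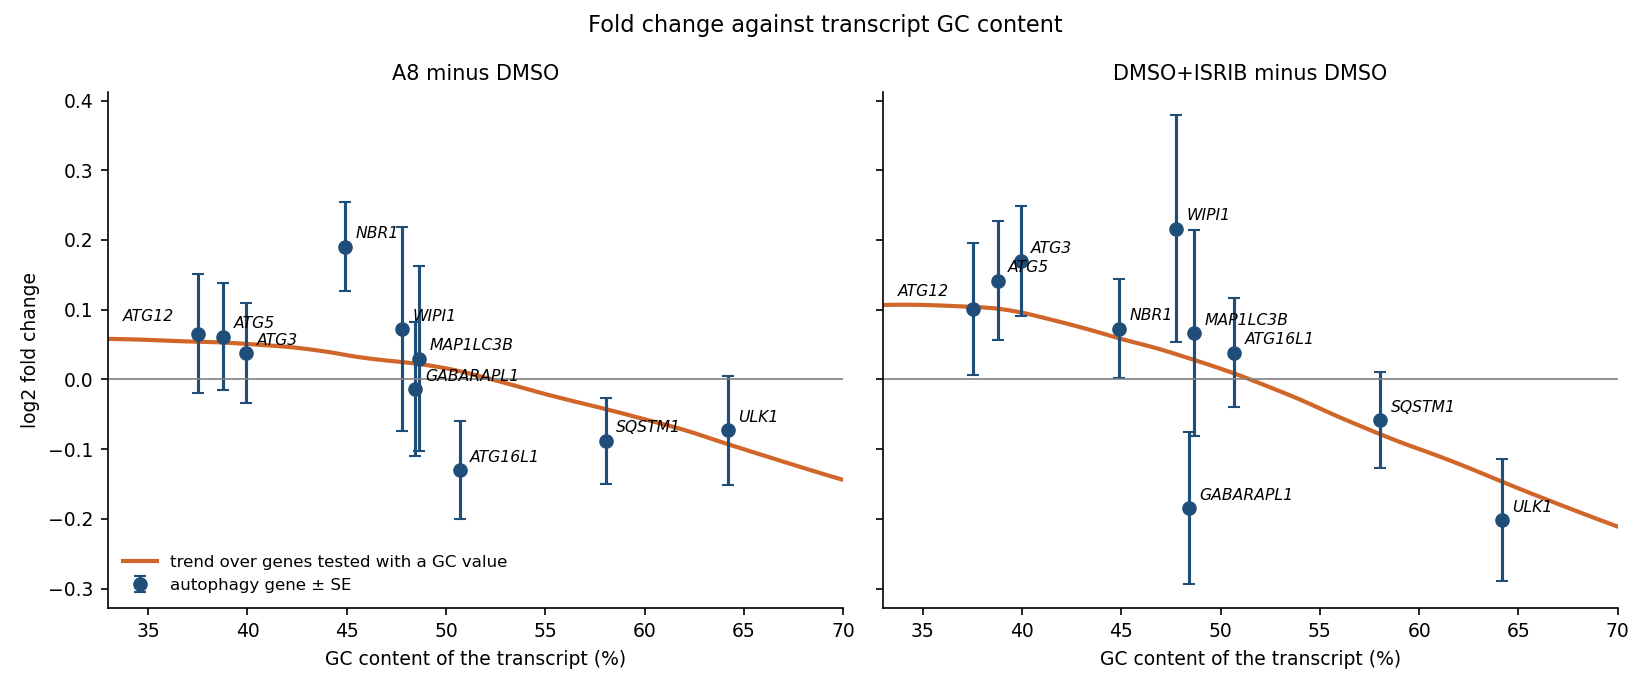
Log2 fold change (y axis, with SE bars) against GC content of the transcript in percent (x axis) for the 10 autophagy genes, with the smoothed trend over the tested genes that have a GC value (orange line). ATG3, ATG5, ATG12, SQSTM1 and ULK1 lie close to the line with ISRIB alone, while GABARAPL1 lies below it and WIPI1 above it.

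Whether ISRIB changed these transcripts where A8 was present was asked by comparing A8 with ISRIB against A8 alone. In this comparison CHAC1 and ASNS fell, by log2 fold changes of -2.05 and -0.78 (adjusted p of 1.49e-06 and 5.18e-06 in edgeR). The autophagy genes had log2 fold changes between -0.06 and 0.11, and 0 of 10 had libraries without overlap, against 11.1% of all genes tested. By edgeR 0 of the 10 were called beside 0.18% of all genes, and 0 reached an unadjusted p under 0.05 beside 5.91%. The 95% intervals of the 10 lay between -0.27 and 0.35, and none reached the value of ASNS. DESeq2 called 0 of the 10 and 0.445% of all genes.

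The effect of A8 in the presence of ISRIB was read from A8 with ISRIB against ISRIB alone, a comparison built on libraries other than those of A8 against vehicle. Again 0 of 10 were called in edgeR, beside 0.0128% of all genes, and 0 reached an unadjusted p under 0.05, beside 8.32%. DESeq2 called 0 of the 10 and 0.518% of all genes. CHAC1 and ASNS were also not called by edgeR, at 0.62 and 0.14 (edgeR adjusted p of 0.414 and 0.631). NBR1, at 0.19 without ISRIB, had a log2 fold change of 0.06 with it (SE 0.07). SQSTM1 had 0.08 (SE 0.07), where it had -0.09 without ISRIB. GABARAPL1, higher, and ATG16L1, lower, were the 2 genes without overlap, against 25.2% of all genes (12.8% higher and 12.3% lower).

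Whether the effect of A8 differed with ISRIB was tested as an interaction, and 0 of the 10 were called by edgeR or DESeq2, beside 0.0257% and 0.459% of all genes. In edgeR, CHAC1 and ASNS were not called either. CHAC1 was at -1.08 (95% interval -1.59 to -0.57, edgeR adjusted p = 0.241). ASNS was at -0.56 (-0.77 to -0.35, edgeR adjusted p = 0.0766). The absence of calls therefore does not show that A8 acted alike with and without ISRIB. None of the 10 reached an unadjusted p under 0.05 in either tool, against 8.48% of all genes in edgeR. The interaction was 0.17 for SQSTM1 (SE 0.09, edgeR adjusted p = 0.656) and -0.13 for NBR1 (SE 0.10, edgeR adjusted p = 0.748). The other 8 genes had values from -0.18 for WIPI1 to 0.19 for GABARAPL1. Set against vehicle, A8 with ISRIB had no called autophagy gene in edgeR or DESeq2, beside 0.0192% and 0.288% of all genes. NBR1 was the 1 gene at an unadjusted p under 0.05 in each tool, against 7.7% of all genes in edgeR. NBR1, ATG3 and ATG5 were higher in all 3 of these libraries than in vehicle, against 5.79% of all genes, or 12.4% without overlap in either direction.

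The rest of the pathway was read from 8 lists of autophagy and lysosome genes, which hold 83 genes with the 10 included. Of these 80 were tested and 0 were called in any of the 6 comparisons by edgeR or DESeq2. Over all genes, edgeR called 0% to 0.18% per comparison, and DESeq2 0.288% to 1.25% of those with an adjusted p. DESeq2 gave no adjusted p for 3 to 6 of the 83, depending on the comparison. MAP1LC3A and MAP1LC3C had at most 2 and 4 counts in a library and the reticulophagy receptor CCPG1 at most 12, and these 3 were not tested. With A8, 48 of the 80 had a log2 fold change above 0, with a median of 0.03, beside 51.8% of all genes. An unadjusted p under 0.05 was reached by 7 higher and 2 lower genes of the 80, beside 4.9% and 5.34% of all genes. With ISRIB alone these counts were 7 higher and 2 lower (4% and 5.59% of all genes), and in A8 with ISRIB against A8 they were 2 higher and 3 lower (2.73% and 3.18%). List medians with A8 ran from -0.02 for fusion factors to 0.08 for receptors and 0.13 for the initiation complex.

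**Figure D4:**
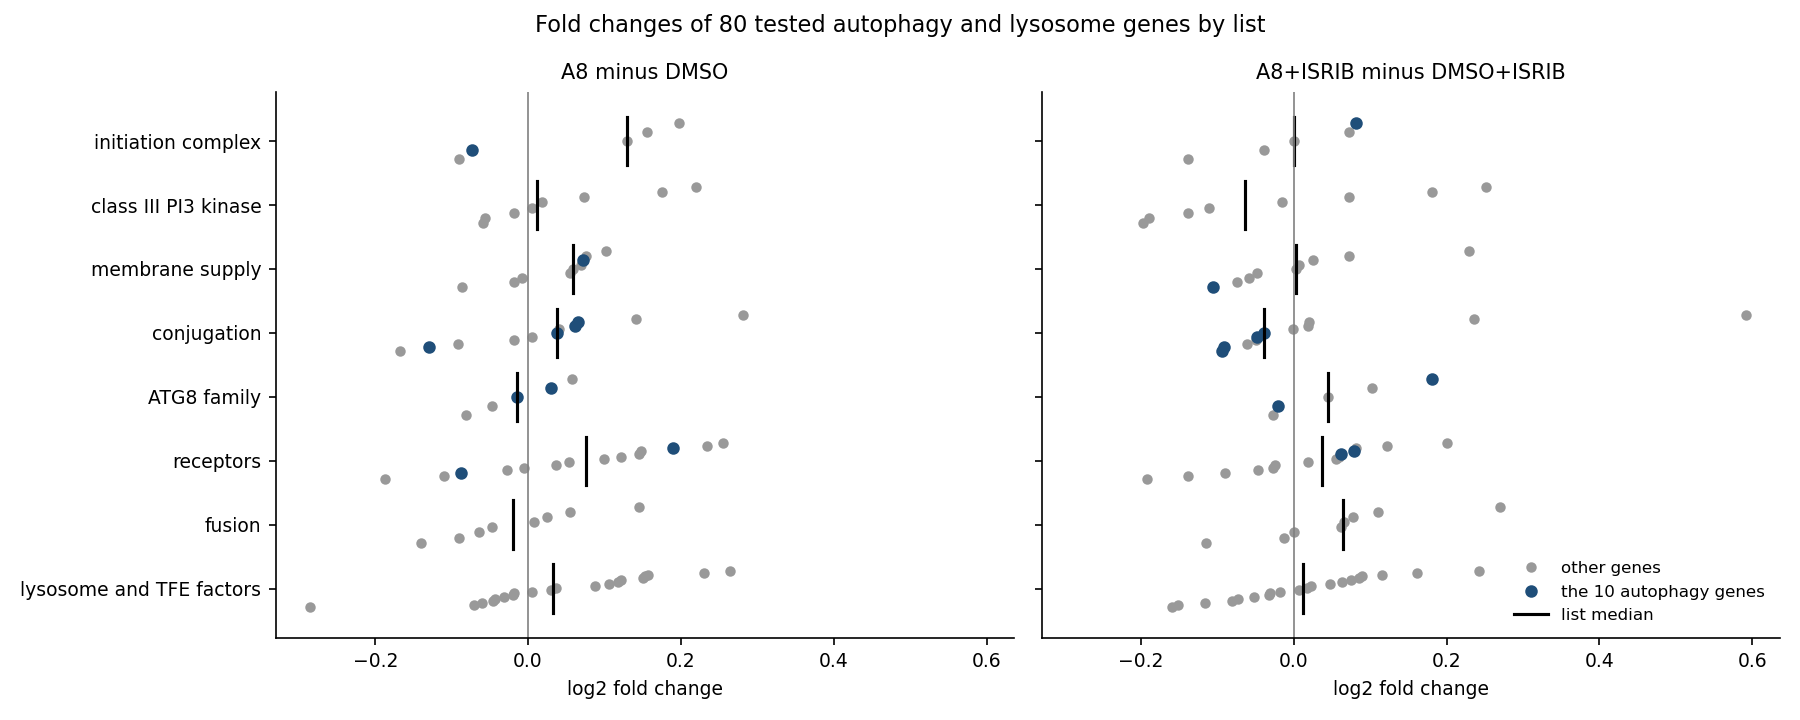
Log2 fold changes (x axis) of the 80 tested autophagy and lysosome genes in 8 lists (y axis) for A8 against vehicle and for A8 with ISRIB against ISRIB alone; blue points are the 10 autophagy genes, grey points other list genes and black lines list medians. With A8 against vehicle every gene lies between -0.29 and 0.28, and with ISRIB present in both groups between -0.20 and 0.59, the highest being ATG10.

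A few of the other pathway genes are named here because of their values, which were seen first. PIK3C3, the catalytic subunit of the class III kinase, had 20.9, 21.4 and 24.0 CPM in vehicle, 26.2, 26.1 and 24.8 CPM with A8 and 20.4, 21.2 and 22.3 CPM with A8 and ISRIB. With ISRIB alone it had 25.2 and 23.6 CPM. The A8 libraries lay above those of vehicle and of A8 with ISRIB, and overlapped with those of ISRIB alone. Its log2 fold change with A8 was 0.22 (edgeR adjusted p = 0.379) and the interaction came to -0.42 (SE 0.12, edgeR adjusted p = 0.399). TAX1BP1, a receptor related in function to SQSTM1 and NBR1, had log2 fold changes of 0.15 with A8 and 0.21 with ISRIB alone, and an interaction of -0.34 (SE 0.10, edgeR adjusted p = 0.372). OPTN, another receptor, had the highest log2 fold change of the receptor list with A8, 0.25 (SE 0.12, edgeR adjusted p = 0.482). ATG10, the enzyme that joins ATG12 to ATG5, had 2.05 and 2.68 CPM with ISRIB alone and 3.49, 3.15 and 4.10 CPM with A8 and ISRIB, from 71 to 131 counts. The log2 fold change of 0.59 in that comparison was the largest of the 80 there (SE 0.19, edgeR adjusted p = 0.446), against 0.28 for A8 without ISRIB. In the other direction, TFEB had 10.9, 9.71 and 9.05 CPM in vehicle and 8.42, 7.17 and 8.74 CPM with A8. Its log2 fold change of -0.29 was the largest in size of the 80 with A8. The lowest edgeR adjusted p of the 80 with A8, 0.207, was in the lysosome list. None of these genes passed the test.

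The genes whose levels over the 11 libraries were most like those of the autophagy genes were sought among 10906 genes, those averaging 2 or more on the log2 CPM scale. For SQSTM1 these were NARF, IKBKG and STRA13, with Pearson correlations of 0.96, 0.92 and 0.91. For WIPI1 they were HERC1, CLOCK and AP1G1, at 0.97, 0.96 and 0.96, and for ULK1 HDAC4, TBC1D16 and PACS2, at 0.93, 0.93 and 0.91. NBR1 was most like IBTK (0.92), LOC730101 (0.89) and ANK2 (0.89). ATG3 was most like PDHA1, PDHB and GSTA4 (0.92, 0.92 and 0.91). These are the highest of 10906 values over 11 libraries, and they are given as a description. Whether depth or base composition adds to them was not tested. WIPI1 and ULK1 were both highest in A8 with ISRIB 1 and both low in A8 with ISRIB 3, libraries of 1 group.

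The authors' deposited tables cover the 3 comparisons with vehicle. Their mean of normalized counts for WIPI1 was 282, above its count in every library used here (157 to 245). For SQSTM1 that mean was 6762, within the counts of these libraries (6158 to 7453). The authors' fit may therefore have drawn on further samples, and which samples entered it was not tested. The values below are thus not a check on the same libraries alone. In the authors' deposited table for A8, NBR1 had a log2 fold change of 0.19 with an adjusted p of 0.759, the lowest of the 10. In the authors' deposited table for ISRIB alone the lowest was that of ULK1, at -0.20 with an adjusted p of 0.876. In the authors' deposited table for A8 with ISRIB, NBR1 had a value of 0.13 with an adjusted p of 0.999. None of the 10 genes passed an adjusted p of 0.05 in any of these authors' deposited tables. The share of all genes that passed there was not counted, so this is not read as a trait of the 10.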

How the data were processed

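The authors deposited whole-number counts per gene symbol for 11 libraries, made on build GRCh37 per the submitters' processing notes. What aligner, counter, strand setting and annotation were used is not given in the sources used here. The authors' deposited DESeq2 tables hold log2 fold changes and p-values, with base means of normalized counts (signal) and, as scores, standard errors and Wald statistics, per the file headers. The DMSO with ISRIB columns carry numbers 1 and 2 while the titles carry 1 and 3, so they are called a and b.

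The quasi-likelihood test of edgeR 4.0.16 (R 4.3.3) was applied to the counts. filterByExpr chose the genes, TMM scaled the libraries, all 11 libraries entered 1 fit of group means, and p-values were adjusted by Benjamini-Hochberg over 15591 genes. Standard errors came from the F statistic. Correlations between genes used log2 CPM with a prior count of 2. DESeq2 1.42.0 and the other alternatives are under the closing section. The fit was tested on simulated counts. GC content and lengths came from the longest coding transcript of GENCODE 29. Promoters came from RefSeq. The 10 genes, the lists and the naming rule (all 10 genes, called list genes, CHAC1, ASNS and ATF4, and the 3 most similar genes for each) were chosen with earlier results of these data known. DDIT3, PIK3C3, TAX1BP1, OPTN, ATG10 and TFEB fall outside that rule and were named after their values were seen. Not all values the rule allows are printed.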

Additional observations from a re-analysis of the deposited data

How the results depend on the processing

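None of the 10 autophagy genes was called in any of the 6 comparisons under the alternatives run. These were the DESeq2 Wald test, DESeq2 size factors, the low-count filter dropped or set to 50 counts over all libraries, fits of the groups compared, the replicate block, each library left out in turn, MAP1LC3B summed with MAP1LC3B2, and, as values with no test, the GC trend removed. All 77 alternative counts stayed at 0. The main edgeR fit called 0% to 0.18% of all genes per comparison, so counts of 0 among 10 genes say little about how stable these results are. Where leaving out a library left 1 ISRIB library, it was assumed to vary like the other groups. With the replicate block, possible for the 9 libraries with a number, 0 of the 10 genes were called in each of 3 comparisons. Same-numbered libraries had correlations of -0.13 to 0.14 and others -0.12 to 0.15, and 3 of 9 libraries correlated best with their own number, so the numbers were not taken as pairs. Summing MAP1LC3B with MAP1LC3B2 turned its value in A8 against vehicle to -0.0228. Leaving out libraries turned the sign of the following uncalled log2 fold changes, given with the lowest and highest value over the libraries left out. For A8 against vehicle these were ATG12 (-0.0017 to 0.15), GABARAPL1 (-0.060 to 0.038), MAP1LC3B (-0.065 to 0.15), WIPI1 (-0.034 to 0.15). For ISRIB alone against vehicle these were ATG16L1 (-0.0062 to 0.071), MAP1LC3B (-0.028 to 0.19). For A8 with ISRIB against A8 these were ATG12 (-0.084 to 0.063), ATG3 (-0.013 to 0.072), GABARAPL1 (-0.028 to 0.041), MAP1LC3B (-0.052 to 0.094), ULK1 (-0.14 to 0.032), WIPI1 (-0.10 to 0.14). For A8 with ISRIB against ISRIB alone these were ATG12 (-0.089 to 0.015), MAP1LC3B (-0.089 to 0.058), ULK1 (-0.0068 to 0.16). For A8 with ISRIB against vehicle these were GABARAPL1 (-0.050 to 0.045), MAP1LC3B (-0.049 to 0.16), SQSTM1 (-0.0097 to 0.060), WIPI1 (-0.030 to 0.21). For the interaction these were MAP1LC3B (-0.17 to 0.044). MAP1LC3B and WIPI1, with 157 to 245 counts per library, had the widest intervals.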
